A study of Homo sapiens with 12 samples.

Results

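Small nucleolar RNAs (snoRNAs) were measured by 132 probe sets among the 28869 of a whole-transcript expression array. The 132 were those with exactly 1 gene symbol in the authors' annotation where that symbol began with SNORD or SNORA. They comprised 69 C/D box (SNORD) probe sets for 68 symbols and 63 H/ACA box (SNORA) probe sets for 60 symbols. RNA came from MDA-MB-231, an established human line of triple-negative breast cancer cells, in 4 groups of 3 arrays each. The untreated cells received no agent, and the 5-ALA only cells received 0.1 mM 5-aminolevulinic acid, the precursor from which cells make porphyrins and heme. The control siRNA cells received the same 5-ALA and 15 nM of the non-targeting Allstar siRNA. The FECH siRNA cells received the same 5-ALA and 15 nM of an siRNA against ferrochelatase (FECH), the enzyme that inserts iron into protoporphyrin to make heme. All of the groups were the same line, and a single siRNA sequence was used against FECH. It is printed here because the FECH siRNA group is defined by it, as the labels give it, with its strand not stated.
FECH siRNA: gaauauccucuugguuccg

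snoRNAs are short nuclear RNAs that guide the chemical modification of other RNAs, mainly ribosomal RNA. C/D box snoRNAs base-pair with the target and direct 2'-O-methylation by fibrillarin, while H/ACA box snoRNAs direct the conversion of uridine to pseudouridine by dyskerin. Most human snoRNAs lie in introns of host genes, many of which encode ribosomal proteins or translation factors, and are trimmed from the spliced intron.

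The members fitted that description by position and length in the RefSeq gene table for GRCh38.p14. All 132 were matched by Entrez number, 5 of them under another current symbol. The SNORD genes had a median RNA length of 74 bases (48 to 148), and the SNORA genes 134 bases (123 to 236). A single host gene was assigned to 124 members, 6 lay within several genes with no host assigned, and 2 members, SNORD13 and SNORD32B, lay within no gene of the table. Of the members, 31 lay in genes with a ribosomal protein symbol (18 SNORD and 13 SNORA) and 34 in long noncoding RNA genes (27 SNORD and 7 SNORA). The 31 include SNORA7B, whose host RPL32P3 is a transcribed pseudogene. Strand was not in the table, so a host was taken by containment alone. An array probe set for an intronic snoRNA can also bind the host's unspliced RNA, and these cannot be told apart here.

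The targeted gene followed the labels. FECH had a log2 signal of 8.49 ± 0.09 in untreated cells, 8.50 ± 0.12 with 5-ALA only, 8.55 ± 0.05 with control siRNA and 6.53 ± 0.09 with FECH siRNA (SD, n = 3), and was 4.06-fold lower with FECH siRNA than with control siRNA. The mean log2 signal of 6 genes known to be high in MDA-MB-231 lay between 12.4 and 12.6 on each array, and ESR1 and PGR, the estrogen and progesterone receptors that the line lacks, had means of 6.38 and 5.70, below the table's median of 7.29, while ERBB2 (9.32) and CDH1 (7.38), also listed as low in the line, were above it. Of 7 markers of blood, endothelial and stromal cells, none rose and 3 fell with FECH siRNA against control siRNA (CD14, PDGFRB and PECAM1), and their mean log2 signal lay between 7.30 and 7.33 on the FECH siRNA arrays and between 7.69 and 7.70 on the control siRNA arrays. Whether that shift bears on the snoRNA values was not tested. Of the members, 62 had a mean signal above the table's median (31 of each family) and 70 did not. The files give no detection calls, so a member below the median was not shown to be above background.

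The question of what FECH loss does was put by setting FECH siRNA against control siRNA, since both groups had 5-ALA and an siRNA. Few snoRNA probe sets changed. With limma and an adjusted p below 0.05, 3 of the 132 members passed, or 2.27%, where 17.8% of all probe sets did. SNORD49B and SNORD21 rose, where 9.29% of the table rose, and SNORA31 fell, where 8.55% fell. Among the SNORD members 2 of 69 passed, and among the SNORA members 1 of 63. The share called in the table depended on signal, at 30.8% of probe sets above the median and 4.84% of those at or below it, and of the 3 members called, 1 was above and 2 were below.

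SNORD49B, a C/D box guide encoded in the noncoding host SNHG29, had log2 signals of 10.40, 10.53 and 10.55 with control siRNA and 10.97, 11.05 and 10.94 with FECH siRNA. The untreated arrays read 10.62, 10.60 and 11.03, and the 5-ALA only arrays 10.59, 10.63 and 11.00. All 3 FECH siRNA arrays were above all 3 control siRNA arrays, and the third array of both other groups lay within the FECH siRNA range. The difference was 0.49 on the log2 scale (SE 0.12), or 1.41-fold (adjusted p = 0.0138). Without the second FECH siRNA array the adjusted p was 0.0557. Against 5-ALA only the difference was 0.25 (adjusted p = 0.24). SNORD49A, the other C/D box member within SNHG29, differed by 0.06 (adjusted p = 0.872), so these neighbours did not share the call, though the difference between them was not tested.

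SNORD21, a C/D box guide within RPL5, read 6.64, 6.73 and 6.68 with control siRNA and 6.99, 7.12 and 6.79 with FECH siRNA. The groups did not overlap, but the lowest FECH siRNA array lay within the range of the 5-ALA only arrays, which read 6.85, 6.79 and 6.73. The difference was 0.28 (SE 0.09, adjusted p = 0.0433). It kept its call in 11 of the 22 alternative settings that tested it, and its adjusted p was 0.181 without the second FECH siRNA array.

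SNORA31, an H/ACA box guide within TPT1, which encodes the translationally controlled tumour protein, read 6.85, 6.82 and 6.86 with control siRNA and 6.63, 6.38 and 6.42 with FECH siRNA. It read 6.79, 6.61 and 6.85 in untreated cells and 6.97, 6.75 and 6.86 with 5-ALA only. All 3 FECH siRNA arrays were below the control siRNA and 5-ALA only arrays, while the lowest untreated array, at 6.61, lay within their range. The fall was 1.29-fold against control siRNA (log2 -0.36, SE 0.08, adjusted p = 0.00776) and 1.30-fold against 5-ALA only (log2 -0.38, adjusted p = 0.00601). SNORA31 was called in both comparisons under the 22 alternative settings of each that tested it, and was not tested under the 2 filters on low signal, which remove it. The comparisons share the FECH siRNA arrays.

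**Figure D1:**
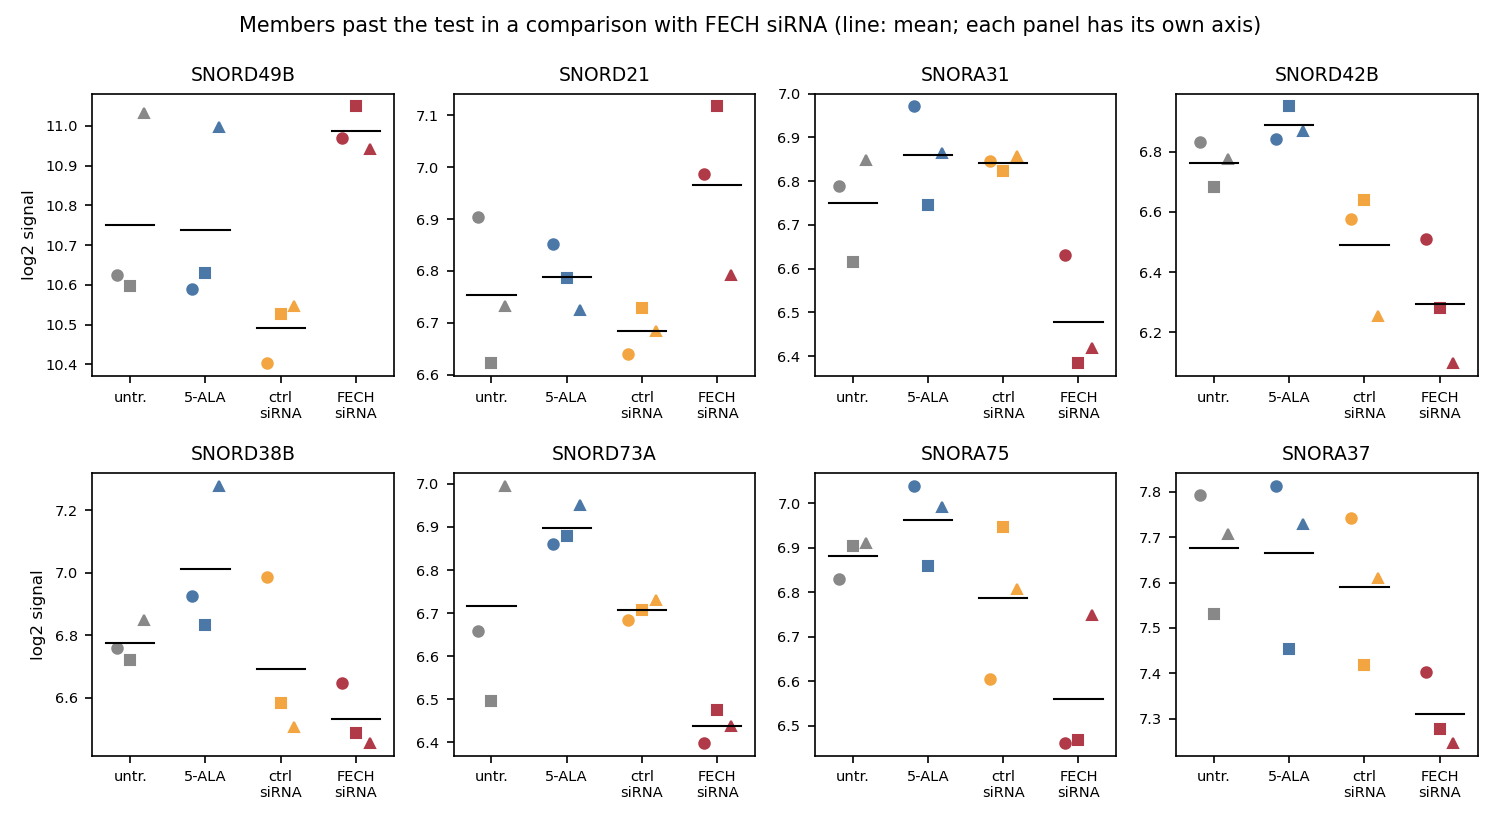
Log2 signal on each array (points; circle, square and triangle are replicates 1, 2 and 3; lines are group means) for the 8 members past the test in a comparison of FECH siRNA with control siRNA or with 5-ALA only; each panel has its own vertical axis. SNORD49B and SNORD21 are highest with FECH siRNA, and the other 6 have their lowest mean there.

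The remaining named members did not pass. Those with the lowest p among rises were SNORD50A at 0.21 (adjusted p = 0.109), SNORD114-26 at 0.16 (adjusted p = 0.135) and SNORD58A at 0.77 (adjusted p = 0.161). Among falls they were SNORA41 at -0.23 (adjusted p = 0.0655), SNORD73A at -0.27 (adjusted p = 0.0809) and SNORA15 at -0.14 (adjusted p = 0.0826). SNORA15 has 3 probe sets and SNORA10 and SNORD103A have 2 each, with near-identical values, so copies of these genes may share signal and their values are uncertain. The median log2 difference was 0.01 for SNORD and -0.04 for SNORA, against -0.02 over all probe sets. Differences lay below 0 for 31 of 69 SNORD and 47 of 63 SNORA members, and for 56.8% of the table. Differences beyond 0.3 in either direction were seen in 4 SNORD and 5 SNORA members, and in 14.8% of the table.

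**Figure D2:**
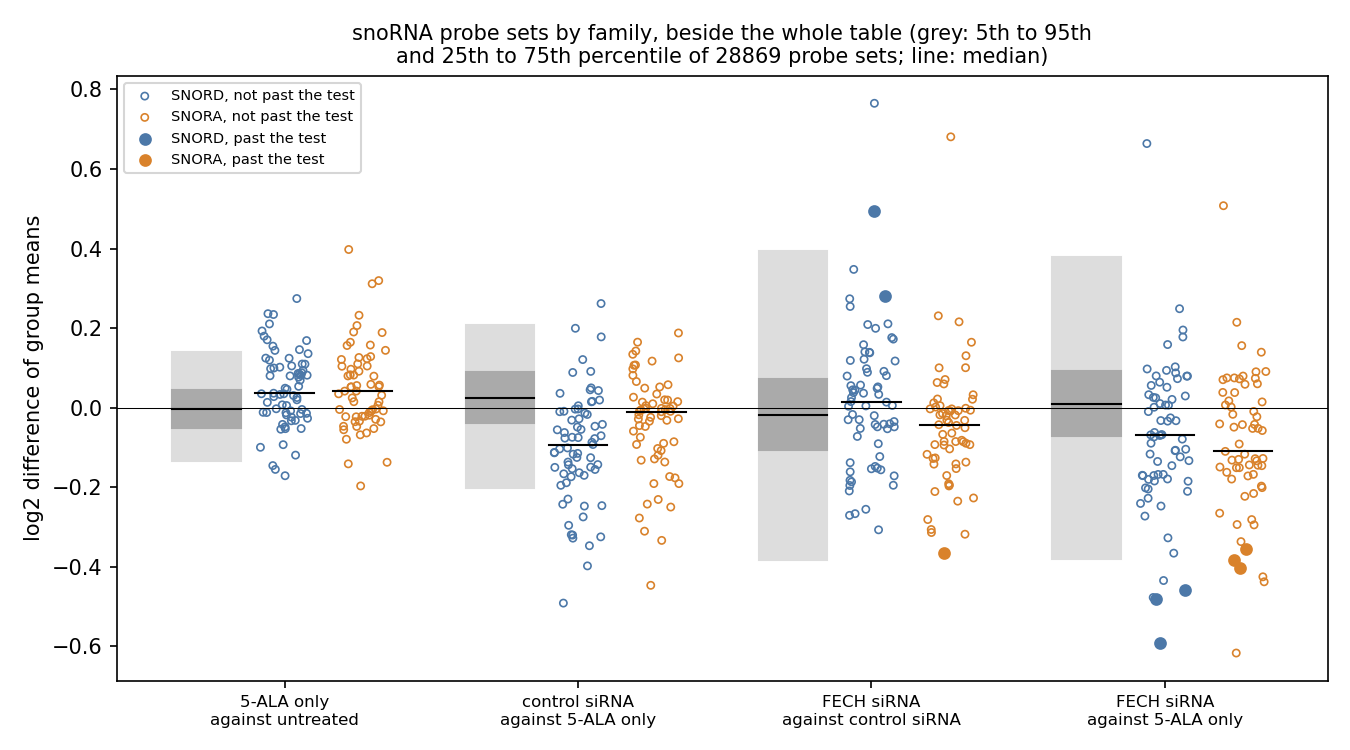
Log2 difference of group means for each SNORD and SNORA member (points, filled where the adjusted p was below 0.05; lines are medians) in 4 comparisons, beside the spread over all 28869 probe sets (light grey, 5th to 95th percentile; dark grey, 25th to 75th). Filled points appear in the comparisons with FECH siRNA: 3 against control siRNA and 6 against 5-ALA only.

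The snoRNA probe sets were more variable between arrays of a group than the table as a whole. The median within-group SD of log2 signal was 0.155 for SNORD and 0.150 for SNORA, against 0.0945 over all probe sets. Among probe sets above the median signal it was 0.201 for SNORD, 0.197 for SNORA and 0.0993 for the table. The median SD over all signal levels was 0.131 for 40 probe sets of other small RNAs, and it was 0.184 for the probe sets above the median that carry several symbols with a snoRNA among them. The median standard error of a difference was 0.112 for SNORD, 0.109 for SNORA and 0.0751 for the table.

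**Figure D3:**
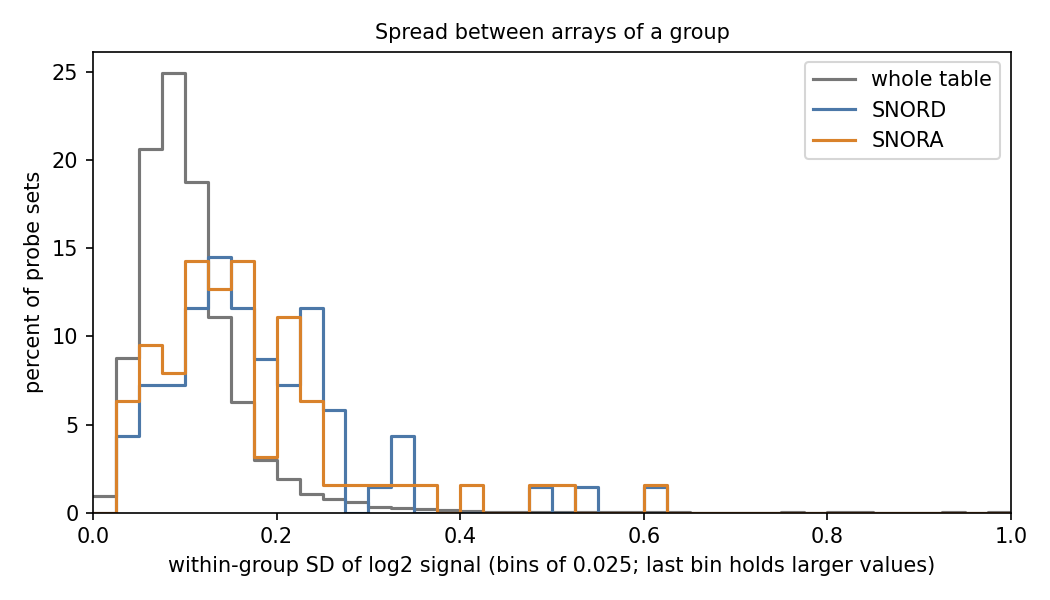
Distribution of the within-group SD of log2 signal (horizontal axis, bins of 0.025) as a percent of probe sets (vertical axis) for the whole table, SNORD and SNORA members. The table peaks at about the 0.0945 median, and both snoRNA families extend to larger values, with medians of 0.155 and 0.150.

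Part of that spread followed the order of the samples. The sample numbers in the titles repeat the 4 treatments in 3 runs, from 1 to 4, 5 to 8 and 9 to 12. A test of the runs, added after the data were seen, found 7 SNORD members (10.1%) and 8 SNORA members (12.7%) past an adjusted p of 0.05 in limma, where 3.08% of all probe sets passed, and 12.9% of the snoRNA probe sets with several symbols. SNORA3, an H/ACA box snoRNA, read 12.12, 12.42, 12.18 and 12.21 on the 4 arrays of the third run, and 10.96 to 11.73 on the other 8. The third run was thus above the others in every treatment. The C/D box snoRNA SNORD6 showed the same order, with run means 0.38 and 0.29 below and 0.68 above its group means on the log2 scale.

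With the run as a block, more members passed in FECH siRNA against control siRNA: 4 SNORD and 3 SNORA, where the share of the table was 21.8%. The members gained were SNORD58A, SNORA21, SNORA37 and SNORD114-26. SNORA21, an H/ACA box guide, read 8.43, 7.80 and 8.83 with control siRNA and 8.86, 8.82 and 9.42 with FECH siRNA. FECH siRNA was the higher in each run, while the groups overlapped. Its difference was 0.68, with an adjusted p of 0.204 without the block and 0.00284 with it. SNORD58A, a C/D box guide within RPL17, read 8.03, 8.62 and 8.23 with control siRNA and 8.73, 9.85 and 8.59 with FECH siRNA. Here too FECH siRNA was the higher in each run and the groups overlapped. Its difference was 0.77, with an adjusted p of 0.161 without the block and 0.0046 with it. For SNORA37 the adjusted p moved from 0.101 to 0.00605, and for SNORD114-26 from 0.135 to 0.0361.

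**Figure D4:**
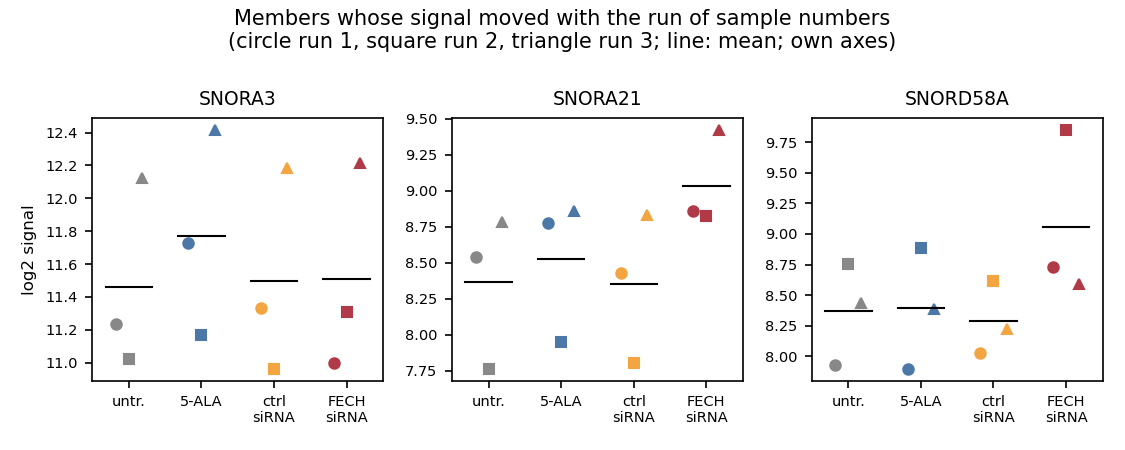
Log2 signal on each array for SNORA3, SNORA21 and SNORD58A by treatment, with the 3 runs of sample numbers as circle, square and triangle and group means as lines; each panel has its own axis. SNORA3 is highest in the third run in every treatment (12.12 to 12.42), and SNORA21 and SNORD58A are higher with FECH siRNA than with control siRNA within each run.

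FECH siRNA against 5-ALA only joins the loss of FECH with the effect of transfection, and uses the same FECH siRNA arrays. Here 6 of the 132 members passed and all fell, where 16.8% of all probe sets passed, 7.78% as falls and 9% as rises. They were SNORD42B, SNORD38B, SNORD73A, SNORA75, SNORA31 and SNORA37. No member rose past the test, and the lowest p among rises belonged to SNORD50A at 0.20 (adjusted p = 0.145), SNORD21 at 0.18 and SNORD49B at 0.25. The median log2 difference was -0.07 for SNORD and -0.11 for SNORA, against 0.01 over all probe sets.

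SNORD42B, a C/D box guide within RPL23A, read 6.84, 6.95 and 6.87 with 5-ALA only and 6.51, 6.28 and 6.10 with FECH siRNA, a fall of 1.51-fold (log2 -0.59, SE 0.11, adjusted p = 0.00244). The control siRNA arrays, at 6.58, 6.64 and 6.25, were also all below the 5-ALA only arrays and overlapped the FECH siRNA arrays. SNORD42B therefore already differed by -0.40 between control siRNA and 5-ALA only, which did not pass (adjusted p = 0.107), but did with the run as a block (adjusted p = 0.0484), when 3.81% of the table passed.

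SNORD73A, a C/D box guide within RPS3A, read 6.86, 6.88 and 6.95 with 5-ALA only, 6.68, 6.71 and 6.73 with control siRNA and 6.40, 6.47 and 6.44 with FECH siRNA. These 3 groups did not overlap, and the untreated arrays, at 6.66, 6.50 and 7.00, spanned most of their range. The fall from 5-ALA only to FECH siRNA was 1.37-fold (log2 -0.46, SE 0.10, adjusted p = 0.00544).

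SNORD38B, a C/D box guide, read 6.93, 6.83 and 7.28 with 5-ALA only and 6.65, 6.49 and 6.46 with FECH siRNA (log2 -0.48, SE 0.13, adjusted p = 0.0237). The groups did not overlap, but without the third 5-ALA only array, the highest, the adjusted p was 0.0948. SNORA75, an H/ACA box snoRNA within the nucleolin gene NCL, read 7.04, 6.86 and 6.99 with 5-ALA only and 6.46, 6.47 and 6.75 with FECH siRNA (log2 -0.40, SE 0.10, adjusted p = 0.0112). SNORA37, an H/ACA box guide within MBD2, which encodes a protein that binds methylated DNA, read 7.81, 7.45 and 7.73 with 5-ALA only and 7.40, 7.28 and 7.25 with FECH siRNA (log2 -0.36, SE 0.11, adjusted p = 0.0397). Neither pair of groups overlapped, but the SNORA75 call was lost without the second FECH siRNA array (adjusted p = 0.0544), and the SNORA37 call without the first 5-ALA only array (adjusted p = 0.155). With the run as a block, 6 SNORD and 7 SNORA members passed, 11 of them as falls, where 20.8% of the table passed.

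The effect of 5-ALA alone was asked by 5-ALA only against untreated. No member passed, and 2 probe sets of the table did (0.00693%). At an unadjusted p below 0.05 there were 1 SNORD and 2 SNORA members, against 3.11% of the table. The lowest p among rises belonged to SNORA28 at 0.32, SNORD96B at 0.15 and SNORA13 at 0.19, and among falls to SNORA51 at -0.14, SNORA65 at -0.20 and SNORD105 at -0.16. The median log2 difference was 0.04 for both families.

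The effect of transfection was asked by control siRNA against 5-ALA only. No member passed, where 1.72% of all probe sets did, and at an unadjusted p below 0.05 there were 5 SNORD and 2 SNORA members, against 13.6% of the table. Differences were below 0 for 55 of 69 SNORD and 40 of 63 SNORA members, against 39.3% of the table, and the median was -0.09 for SNORD, -0.01 for SNORA and 0.02 for the table. The lowest p among falls belonged to SNORD42B, SNORD49A at -0.49 (adjusted p = 0.147) and SNORA7B at -0.24 (adjusted p = 0.262). Among rises it belonged to SNORA51 at 0.16 (adjusted p = 0.184), SNORD83A at 0.20 (adjusted p = 0.275) and SNORA42 at 0.19 (adjusted p = 0.562). Over arrays, the median SNORD deviation was 0.08 lower with control siRNA than with 5-ALA only, the groups overlapped, and the exact two-sided permutation test gave p = 0.2, where the smallest p that 3 arrays against 3 allow is 0.1. Within the runs, the SNORD difference was -0.06, -0.07 and -0.10, of 1 sign in all 3. That of SNORA was -0.06, 0.04 and -0.08, and that over all probe sets was 0.00, 0.02 and 0.04. SNORA also had 1 sign in all 3 runs in FECH siRNA against control siRNA (-0.08, -0.01 and -0.05, exact permutation p = 0.2). The same held in 5-ALA only against untreated (0.05, 0.04 and 0.03, exact permutation p = 0.5). SNORD had mixed signs in those comparisons, as did both families in FECH siRNA against 5-ALA only.

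Across the 4 groups, the limma F test called 2 SNORD and 2 SNORA members, where 18.2% of all probe sets passed. With the run as a block these were 4 and 5, against 23.5%.

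The 8 probe sets of SNORD113, SNORD114 and SNORD115, which come from imprinted clusters of repeated C/D box genes, were all below the median signal, with a median within-group SD of 0.0606. None passed in any comparison without the block. SNORD13, which guides acetylation of 18S ribosomal RNA and has its own promoter, read 13.47, 13.23 and 13.57 with control siRNA and 13.49, 13.38 and 13.35 with FECH siRNA. These overlapped, with a difference of -0.02 (adjusted p = 0.93).

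Host genes were set beside the snoRNAs within them. Of 79 distinct hosts, 47 had exactly 1 probe set of 1 symbol, and these contained 69 members. Hosts with several were set aside, a choice made after the host values had been seen, since processed copies of ribosomal protein genes can carry the parent's symbol. In FECH siRNA against control siRNA 6 hosts rose and 5 fell, or 23.4% past the test where 17.8% of all probe sets passed. Most of the 47 hosts had a signal above the table's median, where 30.8% of probe sets passed. None of the 15 members within those 11 called hosts passed without the run block. With the block SNORA37, within MBD2, did (adjusted p = 0.00605). Differences were below 0 for 7 of the 9 members whose host fell, as they were for 78 of all 132 members. They were above 0 for 4 of the 6 members whose host rose. Those 9 members lie within the 5 hosts that fell and include the near-identical SNORD103A copies, so they are not separate observations. In FECH siRNA against 5-ALA only 2 hosts rose and 9 fell, or 23.4% where 16.8% of all probe sets passed. Of the 14457 probe sets above the median, 4225 passed in that comparison. Of the 17 members within the called hosts, 3 passed. Here 14 of the 15 members whose host fell were below 0, as were 87 of all 132 members. Both members whose host rose were above 0 by less than their SE, SNORD63 at 0.06 (SE 0.14) and SNORD41 at 0.0065 (SE 0.36). With the rule used first, the probe set of highest mean, there were 57 hosts, of which 13 passed in each comparison, with 0 of 19 and 3 of 21 members.

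The 3 members that fell with a host were SNORA75, SNORA37 and SNORA31. NCL fell by 0.66 on the log2 scale against 5-ALA only and by 0.49 against control siRNA (adjusted p = 1.23e-05 and 0.000112). Of the other NCL members, SNORD20 differed by -0.03 and SNORD82 by -0.24 against 5-ALA only, and neither passed. MBD2 fell by 0.48 in both comparisons, and TPT1 fell by 0.30 against 5-ALA only and differed by -0.18 against control siRNA (adjusted p = 0.0579). Other hosts rose without a call in their snoRNA: HSPA9, a mitochondrial chaperone, rose by 0.49 and its SNORD63 differed by 0.20 (adjusted p = 0.428), and RABGGTB rose by 0.69 and its SNORD45C differed by 0.25 (adjusted p = 0.422), both against control siRNA. SNHG29, the host of SNORD49B, differed by 0.17 (adjusted p = 0.0634).

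**Figure D5:**
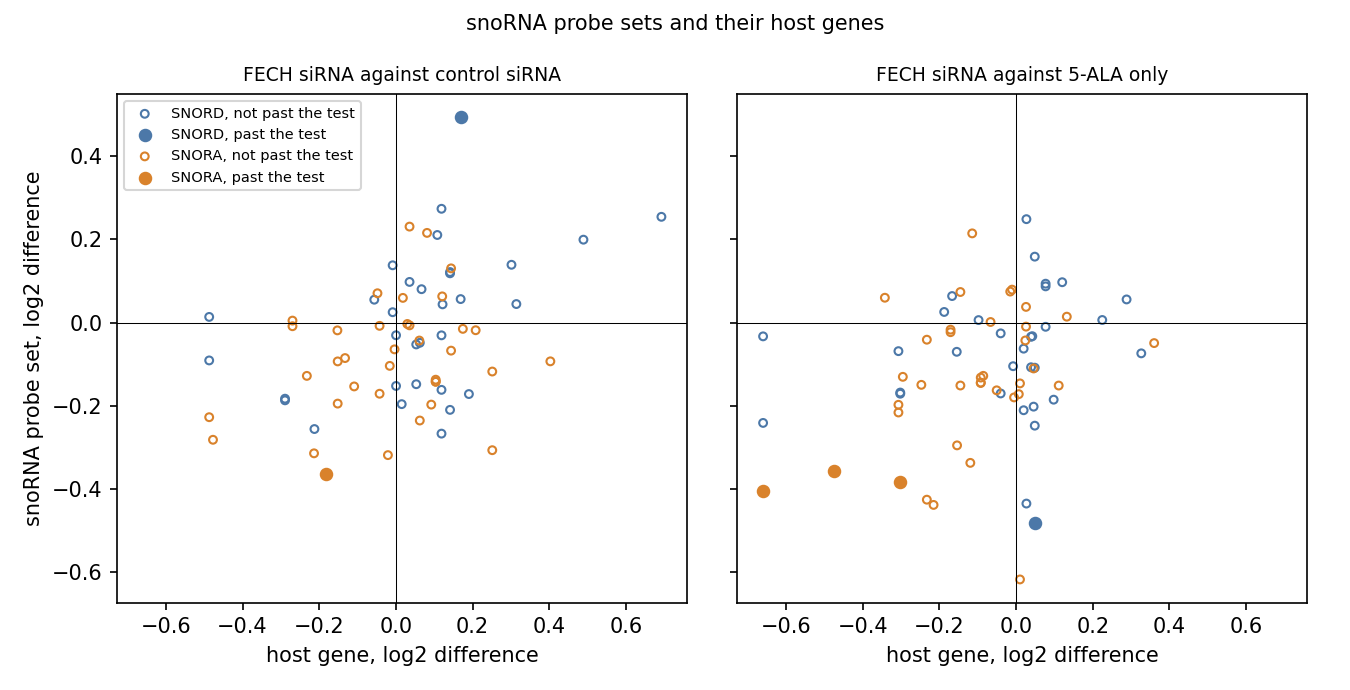
Log2 difference of each snoRNA probe set (vertical axis) against that of its host gene (horizontal axis) for the 69 members whose host has exactly 1 probe set, in FECH siRNA against control siRNA (left) and against 5-ALA only (right); filled points passed the test as snoRNAs. SNORA75, SNORA37 and SNORA31 lie at lower left against 5-ALA only, where their hosts fell by 0.66, 0.48 and 0.30.

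Many snoRNA host genes belong to the class whose transcripts begin with a C followed by a run of pyrimidines, the terminal oligopyrimidine motif that links translation to growth signals. The starts of 4 hosts of called members are shown to let them be compared, as 15 bases before and 15 after the RefSeq start on GRCh38.p14, with the run of C and T from the start in capitals. TPT1 (chr13:45341169-45341198, minus strand) and RPS3A (chr4:151099613-151099642, plus strand) have such a run of 7 bases, and NCL (chr2:231464470-231464499, minus strand) and MBD2 (chr18:54224655-54224684, minus strand) have none at this position.
TPT1: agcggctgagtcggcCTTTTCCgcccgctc
RPS3A: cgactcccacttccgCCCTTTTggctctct
NCL: tcagtctttcgcctcagtctcgagctctcg
MBD2: gtgcgcgcccgctctatgatgcttgcgcgc
Over all 27305 genes of the promoter table, 5.14% begin with a C followed by at least 4 pyrimidines, on the strand of the gene. The share among hosts is not given, because 63 of the 79 hosts (79.7%) had an entry, too few for the check to hold.

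The proteins that carry and make snoRNAs were examined in FECH siRNA against control siRNA. Of the C/D box proteins 2 of 4 had a probe set, and fibrillarin (FBL), the methyltransferase, rose by 0.16 (adjusted p = 0.0307) while SNU13 differed by 0.18 (adjusted p = 0.0699). Of the 4 H/ACA box proteins, NOP10 rose by 0.38 (adjusted p = 0.0362), GAR1 fell by 0.34 (adjusted p = 0.0152), and dyskerin (DKC1) and NHP2 each differed by 0.25 without passing, though DKC1 passed with the run as a block (adjusted p = 0.0154). Thus 1 H/ACA core protein rose and 1 fell. All measured core proteins of both families were above the median signal, where 30.8% of probe sets were called.

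Of 13 assembly and Cajal body factors matched by symbol, all above the median signal, 2 rose and 1 fell, where 30.8% of probe sets above the median were called. With the run as a block 4 of the 13 rose, RPAP3 and TCOF1 being gained (adjusted p = 0.0218 and 0.0337), and 1 fell. PHAX, a listed factor, is not among the 13, since its probe set carries the older symbol RNUXA. That probe set, also above the median, rose by 0.33 (adjusted p = 0.0165, and 0.00747 with the block). NOLC1, a nucleolar chaperone of snoRNPs, rose by 0.60 (adjusted p = 6.8e-05), COIL, the Cajal body scaffold coilin, rose by 0.24 (adjusted p = 0.0155), and NAF1, an H/ACA assembly factor, fell by 0.31 (adjusted p = 0.0341). Of 21 measured genes for trimming, intron release and decay, 20 of them above the median, 4 rose and 2 fell, to be read against the same 30.8%. With the block 5 rose and 3 fell, RBM7 and DIS3 being gained (adjusted p = 0.0317 and 0.0011). The exosome subunit EXOSC9 fell by 1.00, and the nuclease PARN, which trims H/ACA RNA ends, fell by 0.37 (adjusted p = 0.0089). The nuclease TOE1 rose by 0.54 and the exosome subunit EXOSC4 rose by 0.41. The list medians were 0.10 for assembly (without PHAX) and -0.01 for trimming, against -0.02 over all probe sets.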

How the data were processed

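The deposited values are linear intensity values per probe set, made by the authors with RMA in oligo, per the submitters' processing notes; no build or version is given in the sources used here. RNA was extracted with RNeasy columns, which recover short RNAs poorly. A second deposited table of 12 columns agreed to within 5e-05 and was not used. Log2 was taken with a pseudocount of 0, and limma 3.58.1 (R 4.3.3) was fitted to all 28869 probe sets and 12 arrays without a filter, so every member was tested, with two-sided moderated tests and Benjamini-Hochberg adjustment per comparison. Design notes had allowed for deposited log2 values. On simulated data for FECH siRNA against control siRNA (28869 probe sets), 75% of changes of log2 0.5 and 100% of log2 1 were recovered. The changes were planted only in probe sets above the median signal of the whole table, with independent noise and no run effect. Recovery was not measured for the snoRNA probe sets, which had a larger SD and of which 70 were not above the median. Named members were, per comparison, up to 8 past the test in each direction, or the 3 of lowest p where fewer than 3 passed; others were chosen after their values were seen, among them SNORA3, SNORD6, SNORD13, SNORD49A and the hosts beyond those of named members. The members and lists were chosen with earlier results of these data known.

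Pairing of the arrays by run rests on the order of sample numbers in the titles; the labels name no batch. Deviations from group means correlated between arrays of the same run by 0.295 to 0.799 over the members (18 of 18 pairs over 0.1), and by 0.0910 to 0.446 over the whole table (16 of 18). The runs were treated as pairs after the block's calls had been seen. Whether the 3 arrays of a group stand for separate cultures is not labelled; p-values then reflect differences among arrays that may be technical, and the number of arrays limits the precision. Alternatives covered filters, variance models, normalization, array weights, the samples fitted, the run block and leaving out each array.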

Additional observations from a re-analysis of the deposited data

How the results depend on the processing

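Counts of called members were small, and several moved by more than 1.5 times. For SNORD in FECH siRNA against control siRNA the count of 2 became 1 with either filter on low signal or a variance trend, and 4 with array weights or the replicate block of runs; leaving out 1 array gave 1 to 6. For SNORA the count of 1 became 0 with either filter, 2 with only 1-symbol probe sets, the variance trend, array weights or only the groups compared, and 3 with the replicate block; leaving out 1 array gave 1 to 3. For FECH siRNA against 5-ALA only, the SNORD count of 3 became 1 with the filter at the median, 0 at the 70th percentile and 6 with the replicate block, and 3 to 5 without 1 array; the SNORA count of 3 became 1 at the 70th percentile, 5 with the variance trend, cyclic loess, array weights or only the groups compared, and 7 with the block, and 1 to 4 without 1 array. For control siRNA against 5-ALA only, the SNORD count of 0 became 1 with the block and stayed 0 without any 1 array. For any difference among the groups, 2 SNORD became 1 with either filter and 4 with the block (1 to 4 without 1 array), and 2 SNORA became 1 with either filter and 5 with the block (0 to 4). A filter removes members from the test by construction; the cause of the other moves was not tested. Both counts for 5-ALA only against untreated, and the SNORA count for control siRNA against 5-ALA only, were 0 throughout.

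SNORA31 in both comparisons, and SNORD42B and SNORD73A against 5-ALA only, were called in the 22 settings that tested each; both filters on low signal removed these 3 members from the test. SNORD49B was called in 22 of 24 (highest adjusted p 0.0557, without the second FECH siRNA array), SNORD38B in 19 of 22, SNORA75 in 20 of 22 (highest 0.0544) and SNORA37 in 17 of 23. No named member changed direction while called.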

Other observations

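U3, the abundant C/D box snoRNA needed for cleavage of the ribosomal RNA precursor, was not among the 132 because its probe sets carry several symbols (SNORD3A with its copies). It is described here after its values were seen. Its 5 probe sets had near-identical values and count as 1 measurement. They read 9.61, 9.75 and 9.39 with control siRNA and 10.74, 10.93 and 10.84 with FECH siRNA, with the untreated and 5-ALA only arrays between 9.64 and 10.04. All 3 FECH siRNA arrays were above the other 9. The rise was 1.25 on the log2 scale (SE 0.12, limma adjusted p = 1.2e-05) against control siRNA and 0.95 against 5-ALA only (adjusted p = 0.00011).

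Of the 124 probe sets with several symbols, a snoRNA among them, 9 passed in FECH siRNA against control siRNA (7.26%, where 17.8% of all probe sets did), 5 of them the copies for U3. The others were SNHG11 with SNORA60, which rose by 0.26, SNORA67 with EIF4A1, which fell by 0.49, SNORD31 with SNHG1, which fell by 0.23, and SNRPN with SNORD116-6, which fell by 0.27. A shared probe set does not say which of its genes changed. Of 40 probe sets chosen by symbol as other small RNAs, 5 passed in the same comparison, or 12.5%, below the 17.8% of the table. RNU11 rose by 0.46 and RNUXA, whose symbol is an older name of the protein gene PHAX, by 0.33. Of 2 RNU5F probe sets 1 rose by 0.59 and the other differed by -0.03 (adjusted p = 0.879). RNU13P2 fell by 0.73 and SCARNA1 by 0.30. With the run as a block in the limma fit SCARNA1 lost its call (adjusted p = 0.0576), and TERC, RNU12P and MIRHG1 gained one (0.010, 0.0397 and 0.0267).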
